A study of Rattus norvegicus with 20 samples.

Results

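Neonatal rat heart cells given diclofenac at 1/25 of the reference concentration for 24 h, the lowest of 3 concentrations at the later of 2 times, were compared with untreated cultures. Diclofenac is a non-steroidal anti-inflammatory drug that blocks the cyclooxygenases encoded by Ptgs1 and Ptgs2, the enzymes that turn arachidonic acid into prostanoids. Prostanoids act on receptors of heart muscle, vessels and fibroblasts, and drugs of this class have long been studied for harm to the heart. The samples were chosen by their titles: 3 treated and 2 untreated arrays, 5 of the 20 arrays of the series.

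All cultures were primary cultures from hearts of neonatal rats, labelled as cardiomyocytes and grown for a day before treatment. The 1/25, 24 h group (n = 3) and the untreated group (n = 2) differ in the labels by the drug and its duration, and the labels give neither the time of the untreated cultures nor the molar value of the reference concentration. Diclofenac at 1/25 for 6 h (n = 3) and at concentration 1 for 24 h (n = 3) were used as further points of comparison. Whether replicates were separate cultures is not stated, so the p-values rest on the spread of these arrays, which may be technical. Both untreated arrays lay on slide 1, the first treated array on slide 5 and the rest on slide 6, scanned on other days than the untreated pair. Treatment, time in culture, slide and scan day therefore cannot be told apart in this comparison.

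The 3 treated arrays did not resemble each other equally. Values below are log2 signals minus the array's 75th percentile, so a level of 0 is that of a bright gene and a difference of 1 is a doubling. Across genes, which are not independent replicates, the first and the third treated arrays correlated with Pearson r = 0.965. The second treated array correlated with them at 0.880 and 0.910, and with the untreated arrays at 0.969 and 0.953. On the first treated array 4504 genes read more than 2 below the untreated mean, on the third 2468 and on the second 275. Well above background were 82.5 and 84.7% of the spots of the untreated arrays and 72.4, 84.3 and 82.0% of those of the treated arrays.

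Signal by gene level and by probe position also differed between the treated and the untreated arrays, least on the second treated array. In the dimmest 10% of genes by untreated level the treated arrays read -0.84, -0.20 and -0.29 from the untreated mean (medians), and in the brightest 10% 0.60, 0.26 and 0.38. In genes with probes more than 1000 bases apart (2601 genes), the probe farther upstream read -0.90, -0.17 and -0.63 relative to the downstream probe on the treated arrays, each compared with the untreated mean. The untreated arrays read -0.03 and 0.03. Of the other 15 arrays, 9 lay between -0.08 and 0.21 and 6 between -0.70 and -0.30, 5 of these 6 at 24 h. With this difference as a covariate in the fit, an alternative chosen after seeing the data, 0 genes passed and 458 higher and 604 lower genes had an unadjusted p under 0.05, against 1050 and 3030 without it.

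**Figure D1:**
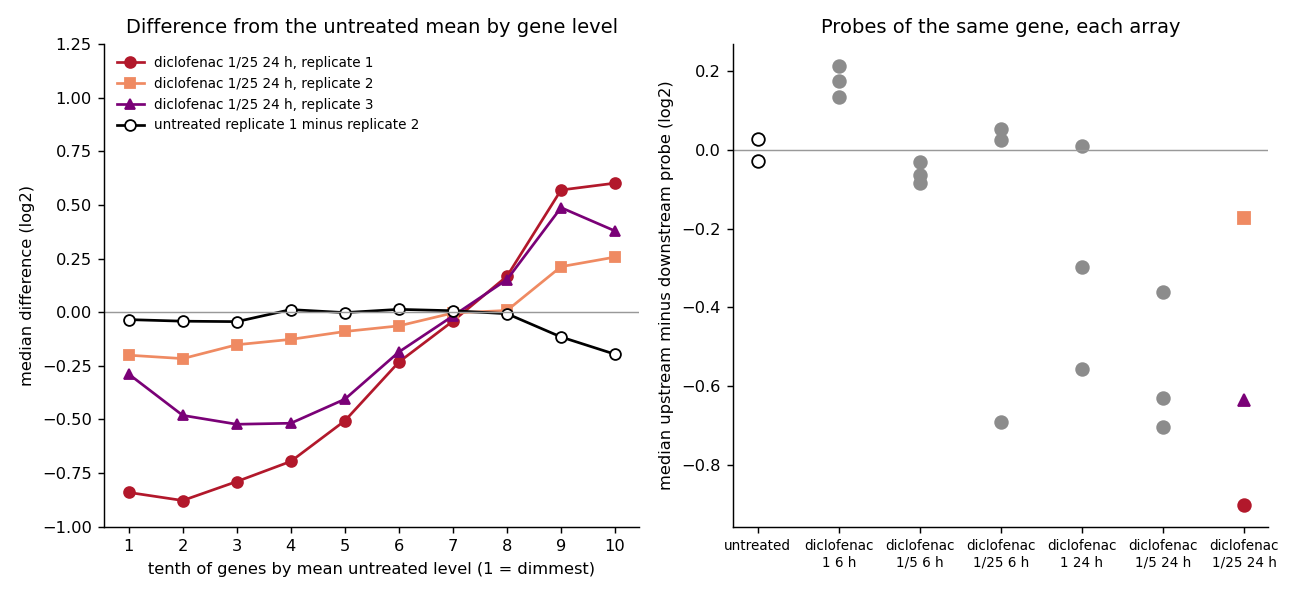
Left, the median difference (log2) of each treated array from the untreated mean in 10 equal bins of genes ordered by untreated level, with the difference between the 2 untreated arrays in black; the treated arrays run from below 0 for dim genes to above 0 for bright genes, the second array least. Right, the median difference (log2) between upstream and downstream probes of the same gene for each of the 20 arrays by group, set so that the untreated mean is 0; the treated arrays of 1/25 for 24 h lie at -0.90, -0.17 and -0.63.

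With limma, 1 of 30506 genes passed the threshold (adjusted p under 0.05 by the Benjamini-Hochberg method), which is 0.00328% of the genes tested, and it was lower. An unadjusted p under 0.05 was reached by 4080 genes (13.4%), of which 1050 were higher (3.44%) and 3030 lower (9.93%). In 6100 genes (20%) all 3 treated arrays lay above both untreated arrays, and in 6228 genes (20.4%) below both. Over all genes the change had a median of -0.13, with a median SE of 0.552. Where the second treated array was left out, 632 genes passed, 91 higher and 541 lower, and where any other of these 5 arrays was left out, 0 did.

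The gene that fell was AI168935, a kidney cDNA end without a symbol in the files. It read -4.27 and -3.58 in the untreated cultures and -7.67, -8.16 and -8.29 in the treated ones. All 3 treated arrays lay far below both untreated arrays and none was well above background, so the fitted change of -4.12 ± 0.55 (SE, adjusted p = 0.0306) stands for a signal at least 4.53-fold lower. It is outside the rule for naming genes, and it was singled out once its values were known. Its probe of 60 bases lies on chromosome 10 from 78465959 to 78466018 (build rn3, as for all probe positions below), and its first 30 bases are shown because nothing else in the files says what the feature is.
AI168935 probe: gtccatcattccttaagtactttctaaggt
The mean was -5.57 ± 0.17 (SD, n = 3) after 6 h at 1/25 and -7.91 ± 0.61 (SD, n = 3) after 24 h at concentration 1. Without the first or second untreated array the adjusted p was 0.175 and 0.525, and without the first or the third treated array 0.0903 and 0.0663. Over 18 alternatives it ran from 0.000108 to 0.525.

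The genes that follow did not pass the threshold and are given as values. They are the 12 in each direction with the smallest p among genes well above background on all 5 arrays, with a change of at least 1 and no overlap between the groups (295 higher and 1011 lower genes met these terms). Their adjusted p ran from 0.182 to 0.262 for the higher and from 0.158 to 0.233 for the lower genes. Since they were picked for this difference, the difference itself is a description. None turned its direction under any of the alternatives in which it had a value, scalings included. Leaving out arrays could not turn it, since the groups did not overlap, so the kept direction was largely fixed by the choice of genes.

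Akr1c15 and its neighbour Akr1c14 read higher after treatment. Both belong to the aldo-keto reductases of family 1C, which reduce steroids, prostaglandins and reactive carbonyls. Akr1c15 read -2.25 and -2.76 in the untreated cultures against -0.24, -0.80 and -0.44 in the treated ones, a change of 2.01 ± 0.44 (SE, adjusted p = 0.182). Akr1c14, the rat 3-alpha-hydroxysteroid dehydrogenase, read -7.81 and -8.10, not well above background, against -4.07, -5.30 and -4.85, at least 2.43-fold higher (adjusted p = 0.212). In both genes the treated and untreated arrays did not overlap, and the second treated array lay nearest to the untreated pair. Their probes lie on chromosome 17 from 77352210 to 77352269 and from 77327921 to 77327980, and the longest run of bases that the 2 probes share is 6 on the same strand and 9 on opposite strands.

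The family was then read whole, a choice made after the pair was seen. The 7 Akr1c genes on the array all had probes on chromosome 17 between 77052291 and 77352269. In 4 the treated arrays lay above both untreated arrays, which held for 20% of all genes. The count includes the pair, chosen because its groups did not overlap, so it is a description only. Besides the pair the 4 held Akr1c1, with a change of 1.90 ± 0.67 (SE, adjusted p = 0.347), and Akr1c19, at 1.19 ± 0.92 (adjusted p = 0.525). Akr1c19 read -2.79, -4.965 and -5.61 treated against -5.68 and -5.62 untreated, and was well above background on 4 of the 5 arrays. Akr1c12 stood at -0.44 ± 0.76, Akr1c2 at -0.64 ± 0.58 and Akr1c3 at -0.28 ± 0.52, and each of these 3 was above 0 under quantile normalization (0.13, 0.11 and 0.38). In the retinal dehydrogenases of family 1A, which make retinoic acid, Aldh1a1 stood at 2.03 ± 0.90 (SE, adjusted p = 0.366) and its neighbour Aldh1a4 at 2.05 ± 0.48 (adjusted p = 0.212). Aldh1a4 was well above background on 1 of the 2 untreated arrays. Aldh1a2 was at -0.04 ± 0.65 and Aldh1a3 at -0.75 ± 0.65. Aldh1a1 read -0.85, -3.40 and -1.45 on the treated arrays against -4.02 and -3.84, so the second treated array lay close to the untreated pair. Aldh1a2 was at 0.45 with centring on the array median and Aldh1a3 at 0.08 with the upstream-downstream covariate described above, so neither had a fixed direction. With that covariate Aldh1a1 was at 0.41, Aldh1a4 at 1.53, Akr1c19 at 0.20, Akr1c1 at 1.195, Akr1c14 at 2.23 and Akr1c15 at 1.43.

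The promoters of the 2 neighbouring reductases are shown because the genes read higher together. They are the 250 bases before the annotated start, from RefSeq on build GRCr8, and capitals mark matches to TGACNNNGC, the core of the antioxidant response element bound by NRF2, on either strand.
Akr1c14 promoter, chr17:71083185-71083434, minus strand: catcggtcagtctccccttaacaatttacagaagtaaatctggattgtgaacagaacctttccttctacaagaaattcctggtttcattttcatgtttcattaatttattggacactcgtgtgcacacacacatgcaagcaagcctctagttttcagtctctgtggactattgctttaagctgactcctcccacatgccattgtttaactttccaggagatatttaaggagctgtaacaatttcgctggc
Akr1c15 promoter, chr17:71117958-71118207, minus strand: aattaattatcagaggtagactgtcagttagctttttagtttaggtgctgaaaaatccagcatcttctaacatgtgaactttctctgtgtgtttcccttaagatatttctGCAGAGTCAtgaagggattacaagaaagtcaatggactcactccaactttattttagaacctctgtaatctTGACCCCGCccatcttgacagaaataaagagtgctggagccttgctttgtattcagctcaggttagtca
The Akr1c15 window held 2 matches, the first beginning 140 and the second 69 bases before the start, and the Akr1c14 window held 0. Of 33469 promoters in the table, 3373 (10.1%) held at least 1 match in the same window.

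Thbd, Igfbp3 and Irak4 were among the other higher genes. Thbd, which encodes thrombomodulin, the thrombin receptor of the vessel lining, read -0.61 and -0.31 untreated and 1.07, 0.83 and 1.24 treated, a change of 1.51 ± 0.38 (SE). The treated arrays agreed within 0.20 (SD, n = 3) and all lay above the untreated pair. Igfbp3, a secreted binding protein of insulin-like growth factors, read -1.69 and -1.57 against 0.13, -0.13 and -0.14, a change of 1.58 ± 0.41 (SE). A second probe of Igfbp3 gave 1.68. Irak4, the kinase that carries signals from Toll-like and interleukin-1 receptors, stood at 1.76 ± 0.44 (SE).

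The rest of the higher genes were of mixed kinds. Scn7a, an atypical sodium channel, stood at 2.27 ± 0.55 (SE), C1qtnf7, a secreted protein related to adiponectin, at 2.24 ± 0.55, and Nnat, the small membrane protein neuronatin, at 2.31 ± 0.58. Elavl2, an RNA-binding protein of neurons, stood at 1.88 ± 0.44, where a second probe gave 0.53. Probes disagreed more in 4 others. Olfml1 stood at 2.39 ± 0.54 with 0.83 at its second probe, Eepd1 at 2.05 ± 0.48 with -0.16, Hint1, a nucleotide-binding hydrolase, at 1.39 ± 0.36 with -1.03, and Kirrel3, a cell adhesion gene, at 1.64 ± 0.43 with -0.01.

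Flt1 and Adam5 were among the lower genes. Flt1, the vascular endothelial growth factor receptor 1, read -1.88 and -1.99 untreated and -4.86, -3.14 and -4.59 treated, a change of -2.26 ± 0.51 (SE, adjusted p = 0.191), and its second probe gave -2.28. All treated arrays lay below both untreated arrays, the second nearest. Adam5, of the disintegrin and metalloprotease family, read -2.86 and -3.01 against -5.01, -5.41 and -4.61, a change of -2.08 ± 0.37 (SE, adjusted p = 0.158). Here the second treated array was the lowest.

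The other 10 lower genes were of mixed kinds. Adra2b, the alpha-2B adrenergic receptor, stood at -1.49 ± 0.34 (SE), Plaur, the urokinase receptor, at -2.26 ± 0.54, and Nptxr, the neuronal pentraxin receptor, at -2.61 ± 0.58. Map3k5, the stress kinase ASK1, stood at -2.42 ± 0.58, with -0.96 at a second probe. Nav1, a neuron navigator gene, was at -2.56 ± 0.56, Tmeff1, a membrane protein with follistatin-like domains, at -1.99 ± 0.45, and Strbp, an RNA-binding protein of spermatids, at -1.91 ± 0.46. Trim69, of the tripartite motif family, was at -1.80 ± 0.42, Sox30, a transcription factor of the germ line, at -1.83 ± 0.43 (-0.59 at a second probe), and Lct, which encodes lactase, at -1.71 ± 0.41 (-1.10 at a second probe). In 10 of the 12 higher and 8 of the 12 lower genes the first treated array lay farthest from the untreated mean.

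**Figure D2:**
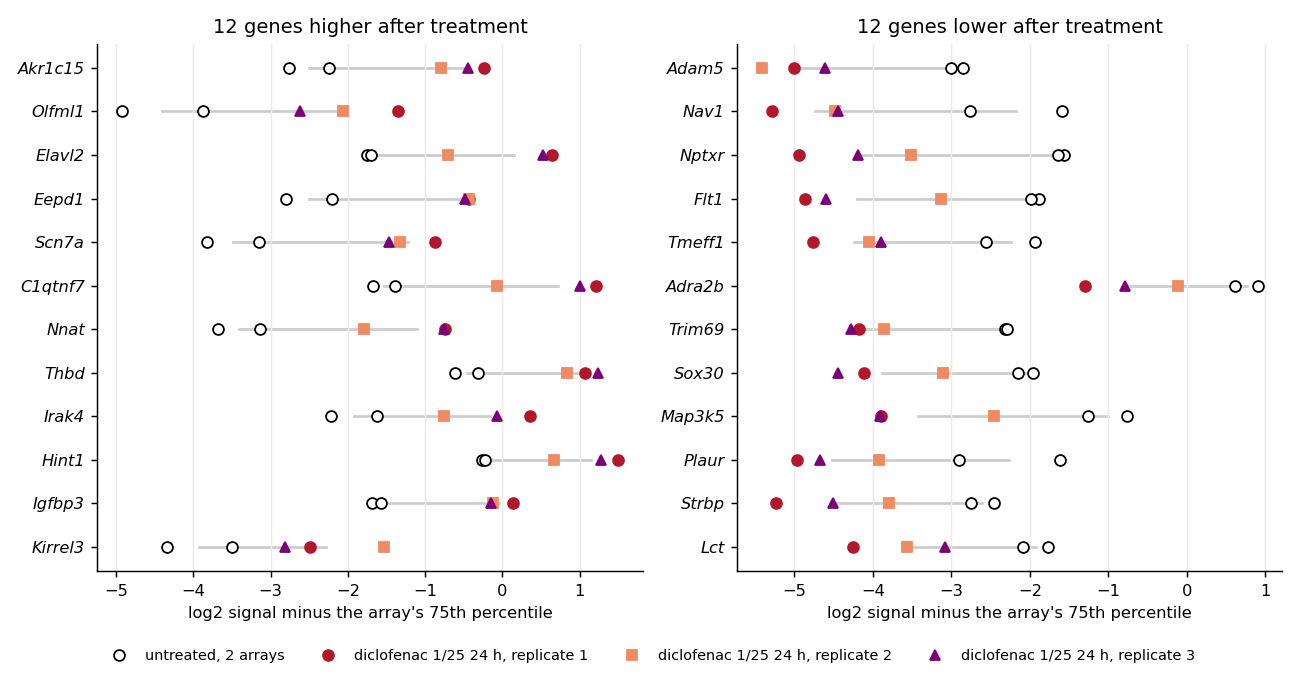
Log2 signal minus the array's 75th percentile for the 12 higher (left) and 12 lower (right) genes with the smallest p, with open circles for the 2 untreated arrays, filled symbols for the 3 treated arrays and grey bars joining the group means. No treated array overlaps the untreated pair, since the genes were chosen so, and the second treated array lies nearest to the untreated mean in 7 higher and 8 lower genes.

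Genes below background in one group were taken separately, 3 in each direction. Synpr, the synaptic vesicle protein synaptoporin, was at least 2.13-fold higher (adjusted p = 0.200), and Junb, an AP-1 transcription factor, at least 2.15-fold higher (adjusted p = 0.345), beside Akr1c14 above. Or6d13c, an olfactory receptor gene, was at least 3.94-fold lower, Mettl4, an adenine methyltransferase, at least 3.49-fold lower, and Mfsd8, a lysosomal membrane transporter, at least 3.81-fold lower (adjusted p = 0.171 each). Mfsd8 read -4.33 and -4.02 untreated and -7.40, -8.30 and -8.43 treated, and already stood at -7.11 ± 1.29 (SD, n = 3) after 6 h at 1/25.

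The same genes were then read on 15 arrays of other groups: the 6 arrays of concentrations 1 and 1/5 at 24 h and the 9 arrays at 6 h. These arrays gave no part of the difference the genes were chosen for, but they entered the estimate of spread behind the p-values and the filter on dim probes, so they are not independent of the choice. All 12 higher genes had a higher mean on the other 24 h arrays than on the 6 h arrays, by 0.73 to 2.55, against 46.0% of all genes. All 12 lower genes had a lower mean, by -2.65 to -0.71, against 54.0% of all genes. In 5 of the 12 higher genes (Akr1c15, Elavl2, Eepd1, Thbd and Irak4) the 6 other 24 h arrays all lay above the 9 arrays at 6 h, which held for 0.662% of all genes. In 4 of the 12 lower genes (Flt1, Adam5, Adra2b and Lct) they all lay below, against 0.451% of all genes. These shares are descriptions: several of the other 24 h arrays also had low upstream probes, and time and slide largely went together. The 6 other 24 h arrays lay on slides 4 and 5, and the 9 arrays at 6 h on slides 1 to 4.

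Set against concentration 1 at 24 h, the 12 higher genes differed by -0.80 to 1.15 (log2, 1/25 minus 1, SE 0.32 to 0.52) and the 12 lower by -1.86 to 0.32 (SE 0.31 to 0.52). None of these differences passed, with adjusted p of 0.828 to 0.989 and 0.531 to 0.996, which does not show that the levels were alike. Thbd stood at 1.04 ± 0.20 (SD, n = 3) at 1/25 and at 1.01 ± 0.18 (SD, n = 3) at 1, a difference of 0.04 ± 0.34 (SE). Akr1c14 stood at -4.74 ± 0.62 and -4.66 ± 0.94 (SD, n = 3 each). No untreated culture of known time was among these arrays, so a difference that appears at 24 h at all 3 concentrations cannot be told apart from time in culture.

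**Figure D3:**
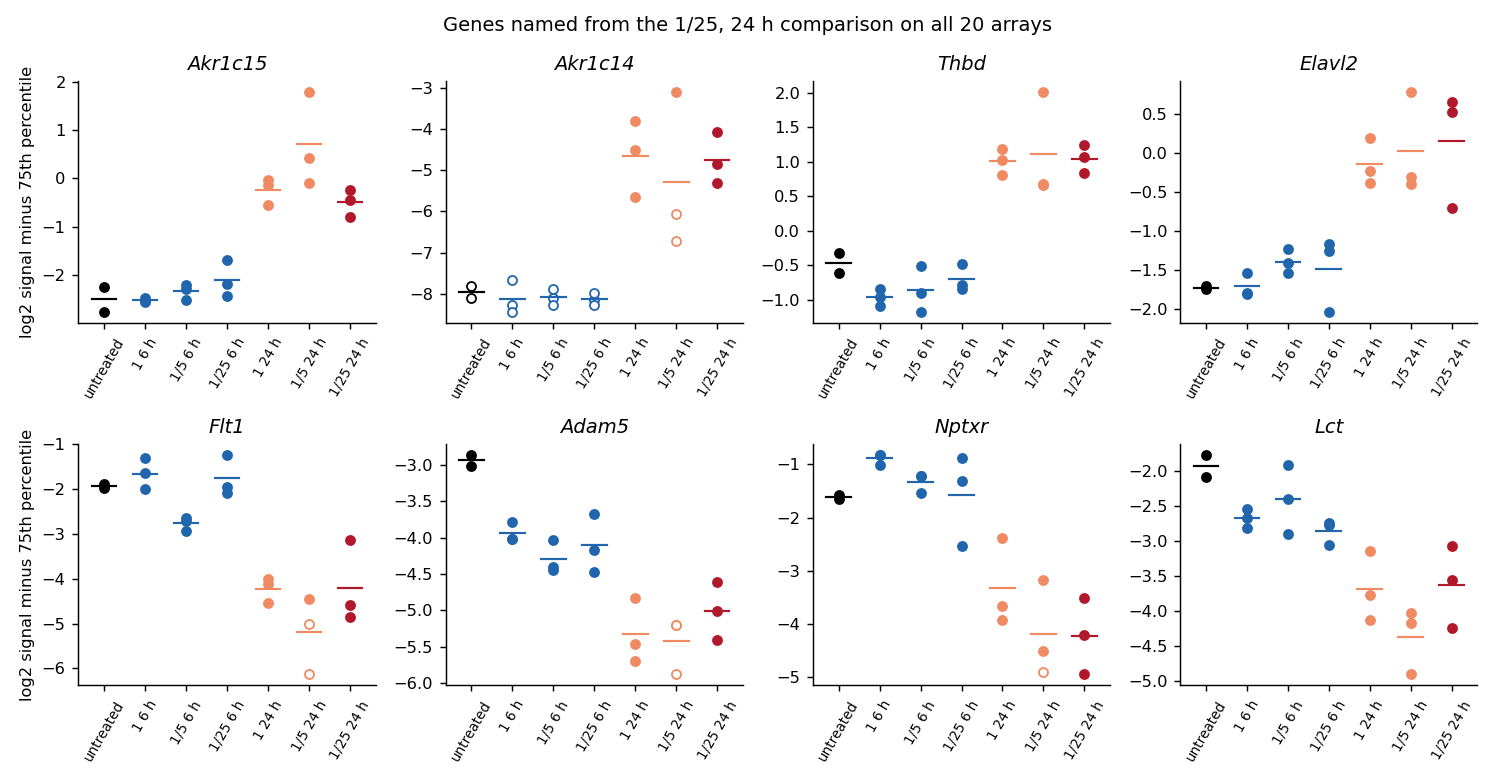
Log2 signal minus the array's 75th percentile of 8 genes on each of the 20 arrays, by group (black, untreated; blue, 6 h; orange, 24 h at 1 and 1/5; red, 24 h at 1/25), with bars at group means and open points where the spot was not well above background. Akr1c15, Akr1c14, Thbd and Elavl2 are higher in all 3 groups at 24 h than in the groups at 6 h, and Flt1, Adam5, Nptxr and Lct lower.

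Gene lists were described by counts and medians. Of 29 lists, no member passed the threshold (0.00328% of all genes did), and the members named here, up to 2 a list with the largest test statistic, had adjusted p of 0.191 to 0.437. For all genes, 44.8% of changes were above 0. The median of a list moved with the scaling: centring arrays on their median in place of the 75th percentile brought the median of all genes from -0.13 to 0.37, and quantile normalization to 0.03. Centring on the array median moved genes alike, so a list kept its distance from all genes. Over the alternatives 24 of the 29 list medians changed sign.

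The targets of the drug came first. Ptgs1, the constitutive cyclooxygenase, read 1.79 and 1.48 untreated and 1.08, 1.62 and 1.37 treated, a change of -0.28 ± 0.63 (SE, adjusted p = 0.814) that turned to 0.22 with centring on the array median. Ptgs2, the inducible cyclooxygenase, read -1.67 and -1.77 against -4.19, -2.98 and -3.37, a change of -1.80 ± 0.68 (SE, adjusted p = 0.350), with no overlap between groups. Of 24 prostanoid genes measured, 5 were above 0. The median was -0.48 (0.02 with centring on the array median, where that of all genes was 0.37). Ptgdr2, a prostaglandin D2 receptor, stood at -1.07 ± 0.44, with the second treated array inside the untreated pair. Groups did not overlap downward in 5 of the 24 (20.8%), close to the share for all genes.

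Ribosomal protein, oxidative phosphorylation, proteasome and heat shock genes had medians above 0. In the 2 brightest of the 10 bins of genes by untreated level, genes as a whole had median changes of 0.36 and 0.41. Cytosolic ribosomal protein genes had 39 of 45 members above 0 and a median of 0.44, which was 0.03 with quantile normalization, and 26 (57.8%) had treated arrays above both untreated arrays, against 20% of all genes. Saturated on at least 1 of the 5 arrays were 26 of the 45, and a saturated spot read 1.85 and 2.05 on the untreated arrays but 2.61, 2.25 and 2.36 on the treated ones (medians), so a difference at a saturated probe follows the scale of the array. Rpl5 stood at 1.84 ± 0.61, where its other probes gave -1.62 and 1.57. Oxidative phosphorylation genes had 20 of 26 above 0 with a median of 0.41 (0.18 with quantile normalization and 0.04 with the upstream-downstream difference as a covariate). Among them Sdhd, a subunit of respiratory complex II, stood at 1.01 ± 0.46 and Cyc1, of complex III, at 0.93 ± 0.47. Proteasome subunits had 23 of 28 above 0 and a median of 0.31, with Psmd3 at -2.21 ± 1.22. Psmd6, its other named member, was saturated on 4 of the 5 arrays, all 3 treated ones among them, so its difference is not given. Heat shock genes had 16 of 20 above 0 and a median of 0.36, although the member with the largest statistic, the chaperone Hsph1, stood at -2.83 ± 1.01 and Hspa1l at -0.76 ± 0.46. These 4 medians stayed above 0 in all 19 alternatives, but with the covariate they were 0.17 for ribosomal, 0.04 for oxidative phosphorylation, 0.05 for proteasome and 0.11 for heat shock genes.

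Contractile genes showed no common shift. Of 22 sarcomere genes 11 were above 0, with a median of 0.10 and Myom1 at -0.83 ± 0.39. The probe of Ldb3, a Z-disc protein, was saturated on all 3 treated arrays, and its second probe gave -0.39. Cardiac stress genes had 9 of 15 above 0. Ccn2, connective tissue growth factor, read -0.14 and 0.29 against 2.01, 1.58 and 1.55, a change of 1.64 ± 0.44 (SE, adjusted p = 0.278), and after 6 h at 1/25 it was already at 1.36 ± 0.43 (SD, n = 3). Postn, periostin, a matrix protein of activated fibroblasts, read 1.58 and 1.64 against -2.74, 0.19 and -0.60, a change of -2.66 ± 0.89 (SE, adjusted p = 0.345). In Postn the treated arrays lay below the untreated pair but spread over almost 3 units. Calcium handling and ion channel genes had 11 of 29 above 0, with sarcolipin (Sln) at -1.75 ± 0.68 and Kcnj3, of the muscarinic potassium channel, at -1.95 ± 0.84 (-0.29 and -1.57 at its other probes). Sln was well above background on only 1 of the 3 treated arrays. Fatty acid oxidation genes had 13 of 26 above 0, with Ech1 at 0.96 ± 0.37. The probe of Hadh, of the same pathway, was saturated on 3 of the 5 arrays and stood at 0.86 ± 0.35, and its second probe gave -0.65.

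Several named genes of different lists were much lower on the first and the third treated arrays than on the second. The same order held over all genes. More than 2 below the untreated mean were 4504 genes on the first array, 2468 on the third and 275 on the second. Ldha, lactate dehydrogenase A, read -1.19 and -1.94 untreated and -7.52, -1.99 and -4.46 treated, and the ER chaperone Pdia4 read -0.09 and 0.10 against -5.69, -1.01 and -3.87. In both genes the second treated array stood within about a unit of the untreated pair, while the others were lower by more than 2. Fdft1, which makes squalene, read -2.50 on the second array and -7.79 and -5.59 on the others, against -2.24 and -1.92. Hsph1 and Plk2 had the same order. Ldha, Pdia4, Fdft1 and Hsph1 were each well above background on 2 of the 3 treated arrays. Of the 3 treated arrays the first and the third were also the pair with the lowest upstream probes. With that difference as a covariate the changes were -1.12 for Ldha, -0.81 for Pdia4, -0.68 for Fdft1, -0.39 for Hsph1 and -0.39 for Plk2. Glycolysis and hypoxia genes as a list had 13 of 24 above 0 and a second named member, Ndrg1, at -1.11 ± 0.47. Integrated stress and ER stress genes had 16 of 28 above 0, with Sesn2 at -1.41 ± 0.64, and cholesterol synthesis genes 16 of 31, with squalene epoxidase (Sqle), saturated on 2 of the 5 arrays, at 0.85 ± 0.38.

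NRF2 target genes, the enzymes that handle oxidants and electrophiles, went both ways. Of 30 members 14 were above 0 with a median of -0.03. Gsta1, a glutathione transferase, stood at 1.63 ± 0.71 and Aldh3a1 at -1.19 ± 0.40. P53 targets had 10 of 20 above 0, with Plk2 at -2.92 ± 1.10. Perp, a desmosomal protein, read -5.61 and -6.15 untreated, not well above background, against -2.85, -6.25 and -3.04 treated. The second treated array was below both untreated arrays and not well above background, so the groups overlapped. The treated mean was at least 3.53-fold higher, a bound that the second array did not share. Apoptosis regulators had 10 of 25 above 0, with Xiap at -2.76 ± 1.04 and Birc3 at -1.10 ± 0.48. The list median was -0.54 (-0.04 with centring on the array median, where that of all genes was 0.37). With the upstream-downstream covariate it was 0.09, against 0.03 for all genes. Autophagy genes had 12 of 23 above 0, with Map1lc3b at 1.00 ± 0.39 (-0.08 and -0.21 at its other probes) and Atg16l1 at -1.44 ± 0.65 (-0.37 and -1.90 at its other probes).

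Of 35 cell cycle genes 9 (25.7%) were lower with an unadjusted p under 0.05, against 9.93% of all genes, and 0 were higher, against 3.44%. The median was -0.35 (0.15 with centring on the array median, where that of all genes was 0.37). With the upstream-downstream covariate it was -0.04, against 0.03 for all genes. With only probes well above background on all arrays it was -0.06, against 0.13 for all genes. Kif11, the mitotic kinesin, stood at -2.56 ± 0.73 and Plk1, a mitotic kinase, at -1.49 ± 0.52. Kif11 was well above background on only 1 of the 3 treated arrays. On the treated arrays the list median was -0.72, -0.02 and -0.30 from the untreated mean, so the second array showed almost none of it.

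The 2 inflammatory lists had medians below 0 that moved with the scaling, as did the median of all genes. That of all genes was -0.13, and 0.37 with centring on the array median. It was 0.03 with quantile normalization and 0.03 with the upstream-downstream covariate. NF-kB targets and cytokines had 6 of 23 above 0 and a median of -0.56, which was -0.06 with centring on the array median and -0.04 with quantile normalization. It was -0.44 with normexp background correction and with the covariate, and stayed below 0 in all 19 alternatives. Within it Icam1, an adhesion molecule for leukocytes, stood at 1.19 ± 0.47 and the chemokine Cxcl6 at -0.93 ± 0.46. Interferon-stimulated genes had 9 of 24 above 0 and a median of -0.49, which was 0.0059 with centring on the array median, -0.072 with quantile normalization and 0.065 with the covariate, and 2 close relatives differed in sign, Ifit1 at 1.31 ± 0.46 and Ifit3 at -1.60 ± 0.50. Immediate early genes had 10 of 25 above 0, with Klf2 at -1.35 ± 0.47 beside Junb above. Drug metabolism genes had 10 of 25 above 0, with the arachidonic acid epoxygenases Cyp2j4 at 0.92 ± 0.37 and Cyp2j3 at 1.29 ± 0.54. Clock genes had 8 of 17 above 0, with Bhlhe40 at least 2.33-fold lower and Hlf at -0.78 ± 0.39.

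**Figure D4:**
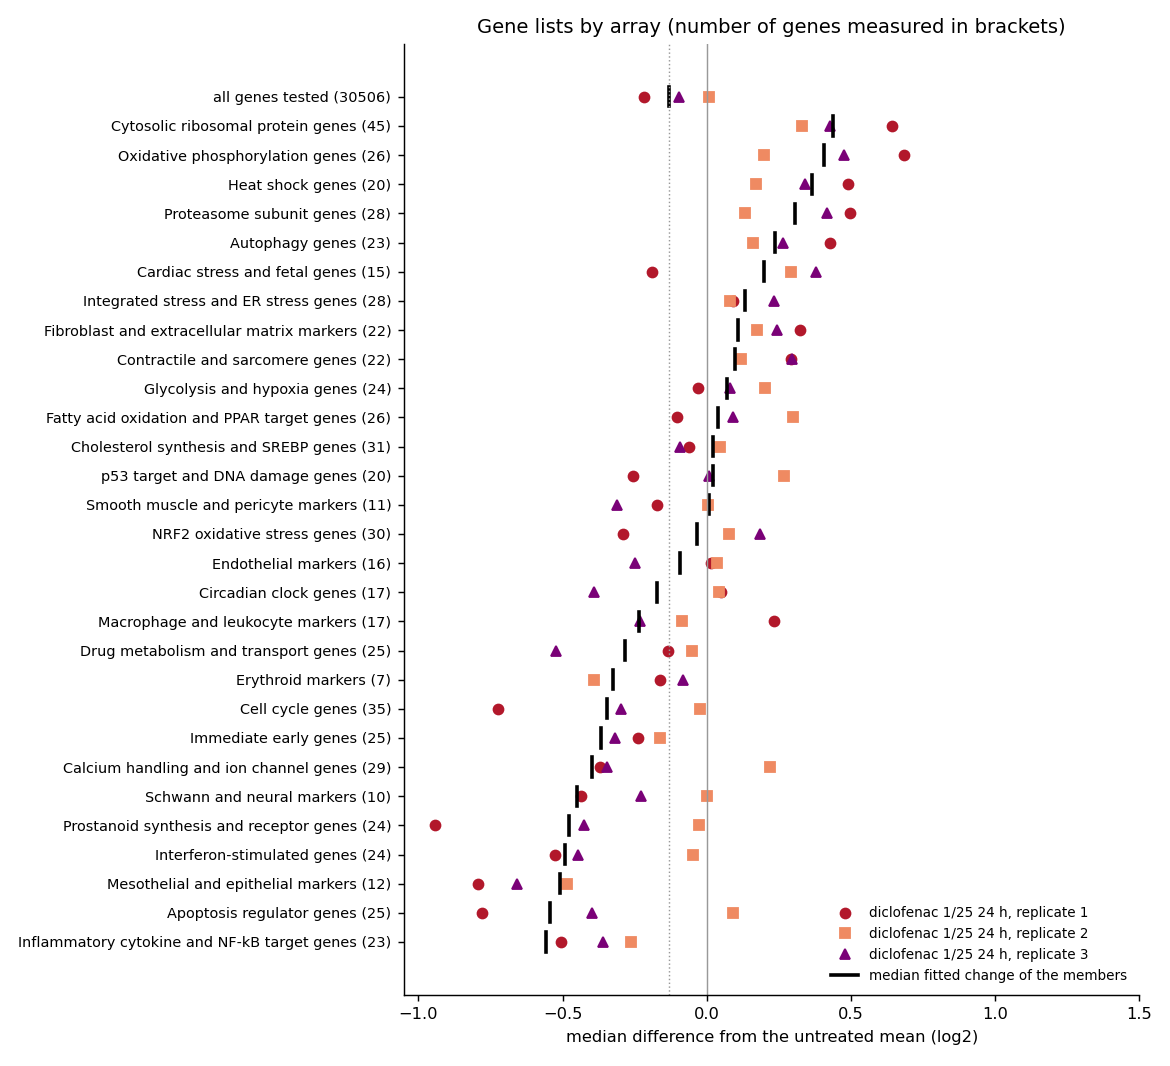
Median difference (log2) of each of 29 gene lists, and of all genes, from the untreated mean on each of the 3 treated arrays (symbols), with the median fitted change as a black bar; the dotted line marks the median of all genes at -0.13. Ribosomal protein and oxidative phosphorylation genes have the highest fitted medians (0.44 and 0.41) and NF-kB and apoptosis genes the lowest (-0.56 and -0.54).

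The labelled cell type was checked against its markers. All 12 cardiomyocyte markers, among them Tnnt2, Actc1 and Ttn, were well above background on all 5 arrays, and so were all 8 fibroblast markers on the array, so the cultures held RNA of both kinds. In such cultures fewer cells of a type and less RNA per cell cannot be told apart. The summed level of the cardiomyocyte markers was 4.27 and 4.46 untreated and 4.78, 4.53 and 4.87 treated. That of the fibroblast markers was 3.89 and 4.15 against 4.41, 4.10 and 4.21. The brightest markers read near the median saturated spot of the treated arrays (2.61, 2.25 and 2.36). Actc1 read 2.68, 2.41 and 2.41 there and Col1a1 2.65, 2.22 and 2.35, and Tnnt2, Col1a2 and Pdgfra were similar. Differences in both sums therefore follow the scale of the array in part. In the longer list of matrix genes 14 of 22 were above 0, with Col5a1 at -2.06 ± 0.60 and Col6a2 at -2.02 ± 0.92.

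Of 6 endothelial markers 4 were well above background on all 5 arrays, and their summed level of 1.35 and 1.26 untreated and 2.68, 1.40 and 2.41 treated rested on Kdr, a growth factor receptor saturated on 2 of the 5 arrays, at 2.63, 1.31 and 2.37 on the treated arrays. In the endothelial list 8 of 16 were above 0, and Thbd and Flt1, at 1.51 and -2.26, were its members with the largest statistics. The part of endothelial cells in these 2 genes was not tested. Smooth muscle markers had summed levels of 2.34 and 2.63 against 1.94, 2.70 and 2.65, and in their list 6 of 11 were above 0, with Cnn1, calponin, at -1.98 ± 0.67 and Myh11 at -1.20 ± 0.59. Leukocyte markers had summed levels of 1.77 and 1.45 against 1.38, 1.58 and 1.22, and in their list 7 of 17 were above 0, with Lyz2 at -1.25 ± 0.46 and C1qa at -2.07 ± 0.86. C1qa was low on the first and the third treated arrays (-4.28 and -3.00) and not on the second (-0.71).

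Of 5 erythroid markers Alas2, Slc4a1 and Ahsp were well above background on all 5 arrays, and Hbb and Rhag on 0. Their summed level was 0.16 and 0.03 untreated and -0.21, -0.67 and -0.04 treated. The erythroid list had 2 of 7 above 0, with Epb42 at -1.71 ± 0.73 and Tfrc at 0.68 ± 0.40 (-0.32 at a second probe). Epb42 was well above background on 1 of the 2 untreated and 1 of the 3 treated arrays. Mesothelial and epithelial genes had 5 of 12 above 0, with the keratins Krt7 at -2.89 ± 0.73 and Krt14 at -1.88 ± 0.76 (-0.64 at a second probe), while the summed level of the 4 mesothelial markers was -0.88 and -1.58 untreated and -0.95, -1.16 and -1.50 treated. Of 5 Schwann cell and neural markers 3 were well above background on all 5 arrays and S100b on 0, with summed levels of -0.06 and 0.30 against 0.46, -0.14 and 0.44. In the neural list 4 of 10 were above 0, with Sox10 at -0.94 ± 0.43.

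The 24 h arrays were also set against 6 h at the same concentration. With limma 0 of 30505 genes passed, 1032 higher (3.38%) and 1990 lower (6.52%) genes had an unadjusted p under 0.05, and leaving out the second 24 h array gave 522. The 2 smallest p in each direction belonged to Thbd at 1.74 ± 0.34 and Aldh1a4, at least 4.21-fold higher, and, among lower genes, to Adra2b at -1.72 ± 0.31 and Os9, a lectin of ER quality control, at -2.37 ± 0.42 (SE, adjusted p = 0.130 each). Thbd stood at -0.70 ± 0.19 (SD, n = 3) at 6 h, below 1.04 ± 0.20 (SD, n = 3) at 24 h.

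Against concentration 1 at 24 h, 1 of 30507 genes passed (0.00328%), and 548 higher (1.80%) and 979 lower (3.21%) genes had an unadjusted p under 0.05. The gene was Igtp, an interferon-induced GTPase. It was well above background on no array at 1/25 and stood at -4.52 ± 0.71 (SD, n = 3) at concentration 1, so it was at least 2.99-fold lower at 1/25 (fitted difference -3.74 ± 0.44, SE, adjusted p = 0.00543). In the untreated cultures it was not well above background either, at -7.91 and -7.80. The call was lost when the first or second array of concentration 1, or the second or the third array of 1/25, was left out (smallest adjusted p of any gene 0.0776, 0.0748, 0.0650 and 0.0746). The probe lies on chromosome 10 from 43865662 to 43865721.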

How the data were processed

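Total RNA of 20 samples of cultured rat heart cells was hybridised with Cy3 to 1-colour Agilent arrays, 1 array a sample. The spot intensity values were made by the authors with Agilent Feature Extraction 9.5.3.1, per the file headers, which subtract background and detrend each array but do not scale arrays to each other; probe positions are on rn3. The authors' deposited value table holds a ratio per probe to the mean of the untreated arrays, each array first divided by its median; this was worked out from the values (correlation with the scanner values 0.996 to 0.999), and it was used only as an alternative. Its log2 medians were 0.44, 0.00 and 0.32 on the treated and -0.04 and 0.04 on the untreated arrays.

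The processed signal was taken as log2 minus the array's 75th percentile. Control and outlier spots were left out, and 35069 of 41012 probes were kept, those well above background throughout at least 1 group. Each of 30507 genes was represented by its brightest kept probe and named through RefSeq accession (10735 probes), symbol (5577) or synonym (3730), or by the file's own name. A linear model over all 20 arrays in 7 groups was fitted with limma 3.58.1 (R 4.3.3), 3 comparisons were drawn from it, and p-values were adjusted by Benjamini-Hochberg over all genes with a threshold of 0.05. A bound ("at least N-fold") sets the bright group's mean against the lowest signal well above background on each dim array, or the probe's own where higher. It was used only where no array of a group was well above background. Where some were, the fitted change is given and dim readings enter it. Besides genes marked so above, this held for Xiap, Sesn2 and Ifit3 (2 of 3 treated arrays well above background).

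Named are the 12 genes of smallest p in each direction among those well above background on all 5 arrays, with a change of at least 1 and groups apart, 3 in each direction by a bound, 2 a list by test statistic, and for the other comparisons up to 5 that passed in each direction, or 2 where none did. Of the genes this rule chose, 2 are not reported here. The comparison and the 29 lists were chosen with earlier results of these data known. In data simulated for the comparison with untreated cultures (30504 genes), 32% of 100 changes of 2 log2 units and 75% of 100 changes of 4 were recovered, with 3 false calls. The simulated noise was independent between genes and had the same spread on every array. The shifts shared by genes of an array and the unequal arrays described above were left out. These rates are therefore not those of the real comparison. The number of arrays limits the precision. Alternatives were scaling, background correction, probe choice and filter, blocks, array weights and leaving out arrays.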

Additional observations from a re-analysis of the deposited data

Results flagged for a closer look

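Adra2b and Os9 lay on opposite sides of the untreated arrays at 6 and 24 h of the 1/25 concentration. Adra2b, the alpha-2B adrenergic receptor, read 0.90 and 0.62 untreated, 0.99 ± 0.09 (SD, n = 3) at 6 h and -1.29, -0.11 and -0.79 at 24 h, and the 24 h mean was lower than the 6 h mean by -1.72 (limma, adjusted p = 0.130). Os9 read -2.79 and -3.12 untreated, -1.82 ± 0.43 (SD, n = 3) at 6 h and -4.57, -3.59 and -4.41 at 24 h, a difference of -2.37 (limma, adjusted p = 0.130). Neither difference passed the threshold.

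Igtp differed between the concentrations at 24 h, by -3.74 for 1/25 minus 1 (limma, adjusted p = 0.00543). Its means were -8.26 ± 0.46 at 1/25, -7.58 ± 0.86 at 1/5 and -4.52 ± 0.71 at 1 (SD, n = 3 each).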

How the results depend on the processing

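The number of genes that passed against untreated cultures (1) was 0 to 632 with 1 of the 5 arrays left out. It was 0 with the 2 groups alone, with array-median scaling, with the deposited table, with the replicate block and with the upstream-downstream covariate, 6 with quantile normalization, 65 with slide as a random block, 87 without the array of lowest signal and 14915 with array weights. Against 6 h (0) it was 0 to 522 with 1 array left out, 9 with quantile normalization, 31 with the slide block, 86 without the array of lowest signal and 17355 with array weights. Against concentration 1 (1) it was 0 to 1 with 1 array left out. It was 0 with the 2 groups alone, array-median scaling, quantile normalization, normexp and the deposited table. It was 2 without the array of lowest signal, 10 with the slide block and 15811 with array weights. Under the filter for probes well above background on all arrays it was also 0, but that filter drops Igtp, the gene that passed. Array weights ran from 0.0388 to 8.05. The slide block was fitted with a correlation of -0.168 between arrays of a slide. This value is below 0, so its counts are not those with a shared slide effect removed. The causes were not tested.

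Same-numbered samples of the 2 groups correlated at -0.147 and -0.118 in their deviations. With 2 untreated arrays the deviations mirror each other, so these 2 values cannot show whether the numbers mark pairs. Over all groups 57 same-numbered pairs ran from -0.765 to 0.638. With the replicate block 0 genes passed against untreated cultures. The 31 genes by smallest p or bound, AI168935 included, kept their direction in all 576 alternative values. Of 1095 values of the other 59 genes 11 reversed: Ptgs1 at 0.22 with array-median scaling and 0.22 with the deposited table; Igtp against untreated at 0.088 with array-median scaling, 0.48 with quantile normalization and 0.086 with the deposited table; Map1lc3b at -0.081 and Rpl5 at -1.62 with the downstream probe; and, with the covariate, Kcnj3 at 0.010, Sesn2 at 0.12, Psmd3 at 0.42 and Tfrc at -0.12. The downstream probe, the covariate and the left-out arrays of the other groups were chosen after seeing the data.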
